A study of Mus musculus with 22 samples.

Results

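Gene expression was compared between haematopoietic stem cells (HSCs) taken from the spleen of Cd53 KO mice after G-CSF (granulocyte colony-stimulating factor) and HSCs taken from the resting bone marrow (BM) of Cd53 KO mice given saline. The comparison uses 7 of the 22 libraries of the study, chosen by their labels and not by any measured value: 4 libraries of KO G-CSF spleen and 3 of KO saline BM. G-CSF was given for 7 days. In every group the cells were sorted as KSL CD48- CD150+, that is, lineage-negative cells carrying Kit and Sca-1 and CD150 but no CD48. All 7 libraries come from knockout animals, and the 4 libraries of KO G-CSF BM serve to take the comparison apart into a treatment step within marrow and a tissue step under G-CSF. The WT littermates after G-CSF in spleen (4 libraries) and after saline in BM (4 libraries) give the same contrast in the presence of Cd53. The study holds no spleen library after saline among the samples analysed here, so treatment and tissue change together in the main comparison and cannot be told apart there. The knockout allele, the strain, the age of the mice and the number of animals behind a library are not given in the sources used here. P-values from limma measure the spread between libraries of a group, which may be technical in part. That spread was estimated over all 22 libraries, which also hold 3 of WT G-CSF BM. In sorted bulk RNA, fewer cells of a type and less RNA per cell cannot be told apart.

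HSCs rest mostly out of cycle in marrow niches, held there by adhesion molecules and chemokines. G-CSF binds its receptor on myeloid cells and activates STAT3, drives granulocyte production and releases stem cells from the marrow into blood and spleen, which is why it is used to collect stem cells for transplantation. CD53 is a tetraspanin, a membrane organiser of leukocytes. The DREAM complex is a repressor assembled in resting cells that silences cell cycle genes, and genes of the G2 and M phases are bound through a CHR element (cell cycle genes homology region) in their promoters.

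The promoters shown here belong to members of gene groups that moved in the comparison and carry a motif of the factor known for that group. Each is 300 bases long, running from 250 bases before to 50 bases after the annotated start, taken from RefSeq on GRCm38.p6 and printed 5′ to 3′ on the strand of the gene. Capitals mark the motif, and a match describes the letters and is not evidence of binding. For Socs3 (chr11:117969317-117969616, minus strand) the capitals mark TTCNNNGAA, the element bound by STAT3 and STAT5. For Oas1a (chr5:120907476-120907775, minus strand) they mark 2 overlapping matches of GAAA, any 2 bases and GAAA again, the core of the interferon-stimulated response element. For Bub1 (chr2:127831810-127832109, minus strand) they mark the CHR, searched as TTTGAA or TTCGAA. For H2-Aa (chr17:34287774-34288073, minus strand) and H2-Eb1 (chr17:34305617-34305916, plus strand) they mark CCAAT, the core of the Y box of MHC class II promoters, read on either strand, which prints as ATTGG on the other one.
Socs3: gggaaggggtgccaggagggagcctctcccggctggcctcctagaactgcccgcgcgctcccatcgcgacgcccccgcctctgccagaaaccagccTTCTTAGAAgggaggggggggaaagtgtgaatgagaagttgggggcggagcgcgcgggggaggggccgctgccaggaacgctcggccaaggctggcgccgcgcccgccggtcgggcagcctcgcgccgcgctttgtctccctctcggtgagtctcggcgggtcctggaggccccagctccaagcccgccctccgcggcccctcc
Oas1a: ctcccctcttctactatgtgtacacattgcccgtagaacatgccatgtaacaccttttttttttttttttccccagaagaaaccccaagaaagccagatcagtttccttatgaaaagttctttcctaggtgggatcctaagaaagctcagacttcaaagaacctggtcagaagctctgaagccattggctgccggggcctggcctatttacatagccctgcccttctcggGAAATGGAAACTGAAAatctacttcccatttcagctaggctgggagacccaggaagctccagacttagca
Bub1: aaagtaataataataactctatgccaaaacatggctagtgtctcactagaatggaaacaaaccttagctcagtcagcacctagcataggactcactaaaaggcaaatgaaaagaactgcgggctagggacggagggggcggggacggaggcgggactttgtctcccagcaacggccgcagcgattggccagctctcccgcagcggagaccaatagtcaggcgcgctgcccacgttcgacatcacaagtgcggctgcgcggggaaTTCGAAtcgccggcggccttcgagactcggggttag
H2-Aa: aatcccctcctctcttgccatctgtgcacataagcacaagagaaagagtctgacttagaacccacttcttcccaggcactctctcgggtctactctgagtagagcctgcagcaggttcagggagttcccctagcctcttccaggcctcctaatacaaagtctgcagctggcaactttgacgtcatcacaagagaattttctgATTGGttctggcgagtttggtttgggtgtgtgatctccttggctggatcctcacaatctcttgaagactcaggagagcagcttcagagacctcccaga
H2-Eb1: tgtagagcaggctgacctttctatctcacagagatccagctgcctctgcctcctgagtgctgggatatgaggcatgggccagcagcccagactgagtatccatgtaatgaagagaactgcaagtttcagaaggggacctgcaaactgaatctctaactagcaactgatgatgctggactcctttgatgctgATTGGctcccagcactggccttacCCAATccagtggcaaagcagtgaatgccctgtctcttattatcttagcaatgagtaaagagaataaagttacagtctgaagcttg
Both strands of all promoter windows of 27025 genes were searched. The STAT motif was present in 5 of the 28 genes of the STAT list that have a window, against 9.55% of all genes. The interferon element was present in 22 of 42 interferon genes, against 3.99% of all genes. The CHR was present in 56 of 77 G2/M genes, against 21.7%, and CCAAT in 7 of 7 MHC class II genes, against 41.1%. The matches begin 154 bases before the start site in Socs3, 20 and 14 bases before it in Oas1a, 14 bases after it in Bub1, 48 bases before it in H2-Aa, and 59 and 35 bases before it in H2-Eb1.

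The libraries of the comparison held 23190226 to 28344219 reads in the 13594 genes listed, of which 13586 were tested. Values are the deposited log2 CPM, that is, log2 of reads on the CPM scale of an effective library size, and intervals and floors on read numbers cover counting error only. KO G-CSF spleen replicate 2 stood apart from the other libraries. On the second principal component of the KO libraries, which carried 15.1% of the variance, it scored 78.7, while the other spleen libraries scored 0.28 to 9.47 and the KO saline BM libraries −8.03 to −5.27. It had 164 listed genes at 0 reads, against 13 to 59 in the other spleen libraries and 58 to 122 in KO saline BM.

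Cd53 itself, the deleted gene (ENSMUSG00000040747, chromosome 3, 106759921 to 106790149, minus strand, GRCm38), was higher in spleen. It lay at 6.25, 6.36, 6.18 and 6.40 log2 CPM in KO G-CSF spleen, against 3.61, 3.58 and 2.02 in KO saline BM. The 7 values do not overlap, and the log2 fold change was 3.22 ± 0.24 (SE), adjusted p = 2.81e-09. An exact permutation test of these 7 values, two-sided, gave p = 0.0571, the smallest that 4 against 3 libraries allow. In WT mice the same contrast gave 3.71 (adjusted p = 3.41e-11). Cd53 averaged 6.30 ± 0.10 in KO G-CSF spleen, against 9.63 ± 0.11 in WT G-CSF spleen (SD, n = 4 each). It averaged 3.07 ± 0.91 in KO saline BM, against 5.92 ± 0.18 in WT saline BM (SD, n = 3 and 4), and in both pairs every KO library lay below every WT library. Which part of the gene was deleted is not given, so whether the remaining reads come from outside the deleted part is not known.

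The gate genes differed in their response. Ly6a, which encodes the Sca-1 antigen of the sort, lay at 8.47, 8.35, 8.24 and 8.39 log2 CPM in KO G-CSF spleen, against 7.52, 7.33 and 7.83 in KO saline BM, a rise of 0.80 ± 0.12 (adjusted p = 0.000162). Cd48, the antigen that the sort excludes, lay at 3.73, 4.21, 4.21 and 4.27 in KO G-CSF spleen, against 2.77, 2.35 and 1.64 in KO saline BM, a rise of 1.85 ± 0.31 (adjusted p = 0.000358). Its transcript was thus higher in every spleen library, although the cells were sorted for lack of the protein. Slamf1, which encodes CD150, had a log2 fold change of 0.06 ± 0.18 (adjusted p = 0.898). Kit, the stem cell factor receptor, lay at 9.36 to 10.33 in KO G-CSF spleen, against 10.06 to 10.69 in KO saline BM, and the groups overlap. Its log2 fold change of −0.57 ± 0.20 missed the threshold (adjusted p = 0.0915), but passed without KO G-CSF spleen replicate 4 (adjusted p = 0.0226).

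Of the 13586 genes tested, 853 (6.28%) passed an adjusted p of 0.05, of which 569 (4.19%) were higher and 284 (2.09%) lower in KO G-CSF spleen than in KO saline BM. Among them 267 rises and 93 falls exceeded 2-fold. The count was 567 without KO saline BM replicate 3, and 885 without KO G-CSF spleen replicate 2, the library that stood apart. With a fit on the compared groups alone it was 664. Irrespective of any test, the 4 spleen and 3 saline values did not overlap in 9.83% of all genes with spleen higher and in 8.29% with spleen lower, and the statements on overlap below stand beside that background.

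The largest rises joined adhesion molecules, myeloid receptors and feedback regulators of cytokine signalling. Muc1, a membrane mucin (chromosome 3, 89229057 to 89233381, plus strand), lay at 6.33, 5.94, 5.97 and 6.21 log2 CPM in KO G-CSF spleen, against 1.43, 1.76 and 1.39 in KO saline BM, a log2 fold change of 4.58 ± 0.23 (adjusted p = 2.86e-12). Selp encodes P-selectin, an adhesion receptor of platelets and endothelium (chromosome 1, 164115264 to 164150026, plus strand). It lay at 7.88, 7.81, 7.67 and 8.26 in KO G-CSF spleen, against 2.15, 4.73 and 3.18 in KO saline BM, and rose by 4.55 ± 0.36 (adjusted p = 1.29e-08). Its saline values were spread over more than 2 log2 units. All lay below every spleen value, which the choice of the largest rises required. Endothelial and stromal markers, of which 7 of 14 are in the table, summed to 252 to 366 CPM in KO G-CSF spleen, against 184 to 245 CPM in KO saline BM. Of these 7 markers 2 passed as higher and 1 as lower, against 4.19% and 2.09% of all genes. Leaving out 1 library gave 0 to 2 higher and 0 to 1 lower. Their median log2 fold change was 0.16, and 4 of the 7 were positive. The part of these markers in the rise of Selp was not tested. Tmem215, a transmembrane protein, lay at 4.42, 4.17, 4.69 and 4.99 in KO G-CSF spleen, against −0.86, −1.83 and −0.23 in KO saline BM, a log2 fold change of 5.54 ± 0.42 (adjusted p = 5.58e-09).

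Cd200r3, a receptor of mouse basophils and mast cells, was close to undetected at rest. It had 1577 reads summed over KO G-CSF spleen and 2 reads summed over KO saline BM, a ratio per effective library size of 610 (exact 95% interval for counting error 168 to 5040). The fitted log2 fold change of 8.61 ± 0.77 depends on the small number added to each count (adjusted p = 8.95e-08). Pirb, an inhibitory receptor that binds MHC class I in mice, lay at 4.57, 4.15, 4.54 and 4.58 in KO G-CSF spleen, against 1.62, 0.89 and −1.20 in KO saline BM, a rise of 4.02 ± 0.42 (adjusted p = 9.15e-07). Clec10a, a galactose-binding lectin of macrophages, rose by 3.69 ± 0.54 (adjusted p = 8.26e-05), from values of 4.23, 3.34, 4.24 and 3.98 in KO G-CSF spleen, against 0.12, 0.45 and 0.21 in KO saline BM. Mast cell and basophil markers summed to 117 to 161 CPM in KO G-CSF spleen, against 208 to 238 CPM in KO saline BM, with 7 of 10 in the table. Of these 7 markers 5 had positive log2 fold changes, none of which passed, the median was 1.42, and 1 passed as lower (0 without KO G-CSF spleen replicate 1 or 4 or KO saline BM replicate 3), so the sum and most of the markers ran in different directions. These receptors are known from mature myeloid cells. All 3 had every spleen library above every saline library, which the choice of the largest rises required.

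Secreted and lysosomal proteins were among the largest rises as well. Lgmn, the lysosomal protease legumain, rose by 4.08 ± 0.38 (adjusted p = 1.29e-07). Wfdc17, a secreted whey acidic protein of myeloid cells, rose by 4.06 ± 0.24 (adjusted p = 7.82e-11). Pla2g7 encodes the enzyme that inactivates platelet-activating factor and rose by 3.79 ± 0.34 (adjusted p = 8.95e-08). Ccdc80, a matrix protein, rose by 3.61 ± 0.32 (adjusted p = 8.95e-08), and Ahnak2, a large scaffold protein, by 3.46 ± 0.43 (adjusted p = 1.03e-05). The groups did not overlap for any of these 5 genes, which the choice of the largest rises required.

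The largest falls contained platelet genes, MHC class II chains and genes of adhesion and matrix. Plk2, a Polo-like kinase induced by growth signals (chromosome 13, 110395046 to 110400844, plus strand), lay at 1.74, 2.63, 1.79 and 2.46 log2 CPM in KO G-CSF spleen, against 4.04, 5.59 and 5.70 in KO saline BM, and fell by 2.96 ± 0.41 (adjusted p = 4.24e-05). Runx1t1, a transcriptional corepressor, lay at 3.90, 2.25, 3.74 and 3.57 in KO G-CSF spleen, against 5.44, 5.58 and 5.61 in KO saline BM, a log2 fold change of −2.18 ± 0.35 (adjusted p = 0.000232). Replicate 2 was the lowest of the spleen libraries. The other 3 also lay below all saline values, which the choice of the largest falls required. Trib2, a pseudokinase, had a log2 fold change of −2.53 ± 0.53 (adjusted p = 0.00349), Hmox1, haem oxygenase, −2.29 ± 0.38 (adjusted p = 0.000358) and Tuba8, an alpha-tubulin, −2.25 ± 0.30 (adjusted p = 2.82e-05). Tns2, a tensin of focal adhesions, had −1.90 ± 0.22 (adjusted p = 3.57e-06) and Bgn, the matrix proteoglycan biglycan, −1.82 ± 0.19 (adjusted p = 7.86e-07). Vcam1, the ligand of the integrin VLA-4, had −1.91 ± 0.46 (adjusted p = 0.0113), but not without KO saline BM replicate 1, where the adjusted p was 0.11. Vcam1 and Hmox1 are also markers of macrophages, whose values follow below.

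**Figure D1:**
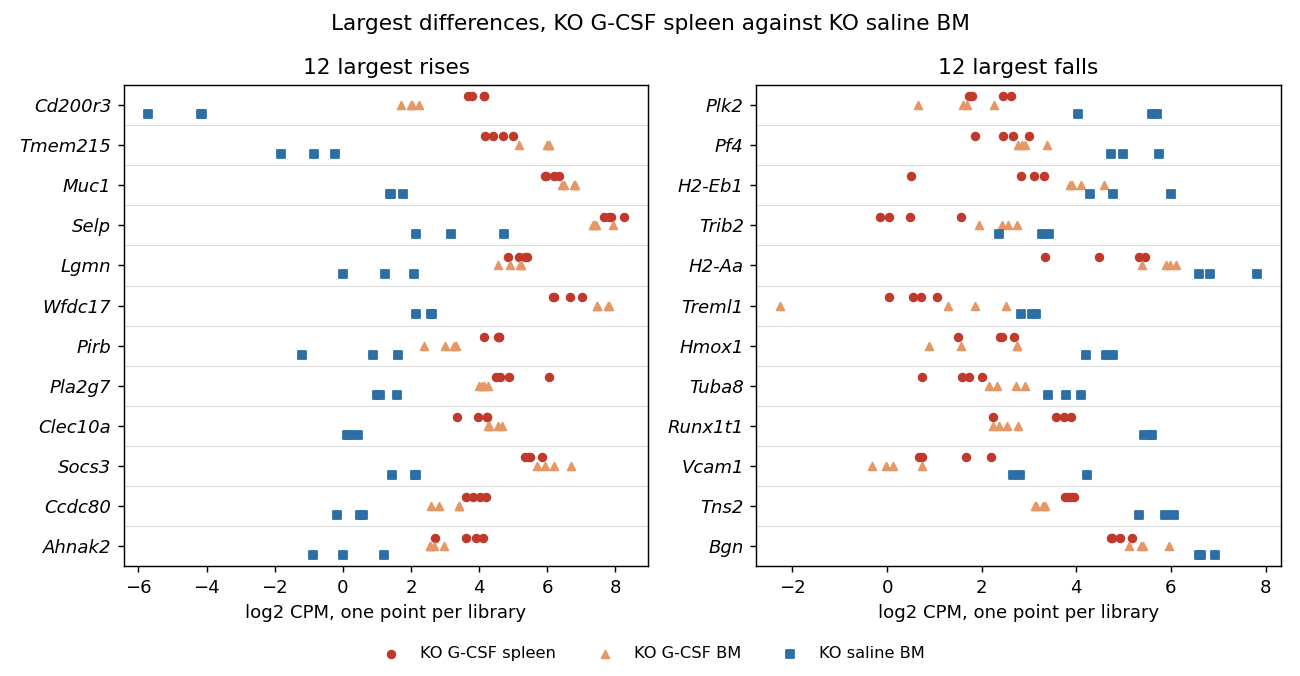
Level of the 12 genes with the largest rise (left) and the 12 with the largest fall (right) in log2 CPM on the horizontal axis, with 1 point per library for KO G-CSF spleen (red circles), KO G-CSF BM (orange triangles) and KO saline BM (blue squares). In every row the 4 spleen libraries and the 3 saline libraries do not overlap, which the choice of these genes required, and for most genes the G-CSF BM libraries lie on the side of the spleen.

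Feedback and effector genes downstream of STAT3 and STAT5 were among the clearest responses. Of 34 tested genes of this group 10 were higher and 3 lower, against 4.19% and 2.09% of all genes, and the group's median log2 fold change was 0.02, against −0.01 for all genes. Socs3, whose product shuts off the G-CSF receptor and whose promoter is printed above, lay at 5.35, 5.86, 5.49 and 5.45 log2 CPM in KO G-CSF spleen, against 2.12, 2.15 and 1.43 in KO saline BM, and rose by 3.63 ± 0.24 (adjusted p = 4.25e-10). Gadd45g, a growth arrest gene, lay at 4.95, 5.07, 4.69 and 5.21 in KO G-CSF spleen, against 0.55, 1.76 and 2.27 in KO saline BM, a rise of 3.45 ± 0.39 (adjusted p = 2.46e-06). Bcl3, an atypical IkB protein, rose by 2.29 ± 0.39 (adjusted p = 0.000541), Pim1, a survival kinase, by 1.25 ± 0.19 (adjusted p = 0.000158) and Il4ra, the alpha chain of the interleukin-4 receptor, by 0.92 ± 0.14 (adjusted p = 0.000187). Each of these 5 genes also passed in the marrow step: KO G-CSF BM against KO saline BM gave 4.23 for Socs3, 3.45 for Gadd45g, 2.04 for Bcl3, 1.38 for Pim1 and 1.31 for Il4ra. The tissue step, KO G-CSF spleen against KO G-CSF BM, passed for none of them, with −0.60 for Socs3, 0.00 for Gadd45g, 0.25 for Bcl3, −0.12 for Pim1 and −0.39 for Il4ra. The 3 lower members were Myc and the cyclin D genes Ccnd1 and Ccnd2, and the lower count was 1 without KO saline BM replicate 2.

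Many genes of multipotent and lymphoid-primed progenitors were higher in KO G-CSF spleen than in KO saline BM. Of 18 tested genes 10 were higher and 0 lower, against 4.19% and 2.09% of all genes, with a median log2 fold change of 0.59. Dntt, the terminal transferase of lymphoid progenitors, had 704 reads summed over KO G-CSF spleen and 18 over KO saline BM, a ratio per effective library size of 30.2 (exact 95% interval for counting error 19.0 to 51.3). It passed with an adjusted p = 5.45e-06. Plac8, a gene of early myeloid and lymphoid progenitors, lay at 7.68, 8.43, 8.05 and 8.0 log2 CPM in KO G-CSF spleen, against 6.83, 6.83 and 6.19 in KO saline BM, a rise of 1.42 ± 0.19 (adjusted p = 3.24e-05). Cd48 and Wfdc17, given above, also belong to this group, and Adgrl4, Satb1, Ikzf2, Cd27 and Emb were also higher. The count of higher members was 8 to 9 on leaving out any of the 7 libraries. In the marrow step, KO G-CSF BM against KO saline BM, 12 of the 18 were higher, against 5.57% of all genes, with a median of 1.0. In the tissue step, KO G-CSF spleen against KO G-CSF BM, 0 were higher and 3 lower, against 0.95% and 0.317%. The median there was −0.18. Leaving out 1 library gave 11 to 13 higher in the marrow step and 1 to 3 lower in the tissue step.

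Effector genes of granulocyte and monocyte progenitors showed 8 higher and 1 lower of 22, where 4.19% and 2.09% of all genes passed, with a median of 0.81. Itgam, the CD11b integrin chain, lay at 5.06, 5.06, 5.23 and 5.79 log2 CPM in KO G-CSF spleen, against 3.43, 3.62 and 2.86 in KO saline BM, a rise of 1.98 ± 0.22 (adjusted p = 2.53e-06). Csf2rb, the shared beta chain of the GM-CSF, IL-3 and IL-5 receptors, lay at 7.74, 7.70, 7.53 and 7.76 in KO G-CSF spleen, against 6.72, 6.66 and 5.97 in KO saline BM, a rise of 1.23 ± 0.17 (adjusted p = 3.24e-05). Igsf6, an immunoglobulin-like receptor of myeloid cells, rose by 1.02 ± 0.24 (adjusted p = 0.0107), and Prtn3, the azurophil granule protease, by 0.81 ± 0.16 (adjusted p = 0.00228). The number of higher members was 4 without KO G-CSF spleen replicate 4, and 5 without KO G-CSF spleen replicate 3, KO saline BM replicate 1 or KO saline BM replicate 3. In the marrow step 8 were higher and 1 lower, against 5.57% and 4.3% of all genes, with a median of 1.22. Leaving out 1 library gave 6 to 8 higher and 0 to 2 lower there. In the tissue step 1 was higher and 0 lower, against 0.95% and 0.317%, with a median of −0.23. Leaving out 1 library gave 0 to 1 in each direction there. Of the markers of mature neutrophils 9 of 12 are in the table, none of them passed, and their summed level ran from 4.46 to 40.8 CPM in KO G-CSF spleen, against 4.18 to 6.37 CPM in KO saline BM. Their part in the rise of the granulocyte genes was not tested.

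HSC identity genes showed the opposite balance, with 2 higher and 8 lower of 42 and a median log2 fold change of −0.18. The higher count is close to the 4.19% of all genes called higher, while 2.09% of all genes were called lower. Cdkn1c, the CDK inhibitor p57 of resting HSCs, lay at 3.97, 4.25, 4.06 and 4.50 log2 CPM in KO G-CSF spleen, against 5.08, 5.17 and 5.18 in KO saline BM, a log2 fold change of −0.95 ± 0.22 (adjusted p = 0.00819). The members that rose were Ly6a, given above, and Esam, an endothelial adhesion molecule also carried by HSCs, which rose by 0.50 ± 0.09 (adjusted p = 0.000826). The number of lower members was 5 without KO saline BM replicate 3. In the marrow step 4 of the 42 were higher and 14 lower, against 5.57% and 4.3% of all genes, with a median of −0.33. Leaving out 1 library gave 0 to 4 higher and 10 to 15 lower there. In the tissue step 6 were higher and 1 lower, against 0.95% and 0.317%, with a median of 0.19. Leaving out 1 library gave 3 to 7 higher and 0 to 1 lower there. In WT the contrast of spleen with saline BM gave 3 higher and 14 lower, against 11.7% and 9.4%. Of 25 genes of quiescence and CDK inhibition 2 were higher and 2 lower in the main comparison, against 4.19% and 2.09% of all genes. Egr1, a transcription factor of resting HSCs and also an immediate early gene, lay at 2.64, 3.51, 2.52 and 3.80 in KO G-CSF spleen, against 4.17, 5.93 and 4.42 in KO saline BM, a log2 fold change of −1.72 ± 0.42 (adjusted p = 0.0137). It did not pass without KO saline BM replicate 2 (adjusted p = 0.1265).

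Immediate early genes are switched on quickly by growth signals and by cell handling. They moved in both directions, with 6 higher and 5 lower of 34, against 4.19% and 2.09% of all genes. Dusp6, a phosphatase that limits ERK signalling, lay at 5.48, 5.0, 5.49 and 5.74 log2 CPM in KO G-CSF spleen, against 6.12, 6.97 and 6.63 in KO saline BM, a log2 fold change of −1.15 ± 0.20 (adjusted p = 0.000779). Myc, the growth regulator, had −0.72 ± 0.16 (adjusted p = 0.00743), and 0.0518 without KO saline BM replicate 2. In Myc the marrow step was 0.03 ± 0.16 (adjusted p = 0.932) and the tissue step −0.75 ± 0.15 (adjusted p = 0.011). The higher count of 6 depended on single libraries: it was 2 without KO G-CSF spleen replicate 2 or without KO saline BM replicate 3, and 3 without KO G-CSF spleen replicate 1 or KO saline BM replicate 1. The lower count of 5 was 2 without KO saline BM replicate 2. Of 23 NF-kB genes 3 were higher and 0 lower, against the same shares of all genes. Among the 3 was Nfkb1, the p105 and p50 subunit, which rose by 0.52 ± 0.09 (adjusted p = 0.000339).

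Megakaryocyte and platelet genes showed 2 higher and 4 lower of 21, against 4.19% and 2.09% of all genes, with a median log2 fold change of −0.40. The higher count was 1 without KO saline BM replicate 1. Pf4, the platelet chemokine and a marker of platelet-biased HSCs, lay at 3.01, 1.87, 2.45 and 2.66 log2 CPM in KO G-CSF spleen, against 4.99, 4.74 and 5.74 in KO saline BM, and fell by 2.66 ± 0.31 (adjusted p = 3.17e-06). Treml1, a receptor of platelet granules, had −2.42 ± 0.66 (adjusted p = 0.0275). It passed without KO G-CSF spleen replicate 1, but on leaving out any other of the 7 libraries its adjusted p was 0.0506 to 0.0905. Selp, given above, and Plek, the platelet protein pleckstrin, were the 2 that rose. Of 15 erythroid genes 1 was higher and 3 lower (0 lower without KO saline BM replicate 3), the higher one being Hbb-bt, an adult beta-globin gene, which rose by 1.47 ± 0.28 (adjusted p = 0.00129). Reads of Hbb-bt may be shared with its near-identical neighbour Hbb-bs, so its value is uncertain. Erythroblast markers summed to 67.5 to 123 CPM in KO G-CSF spleen, against 34.8 to 49.3 CPM in KO saline BM. Of 10 markers 4 are in the table, and Hbb-bt itself is 1 of them. Only Hbb-bt had a positive log2 fold change, and the median of the 4 was −0.44. The sum and most of the markers thus ran in different directions. The part of erythroblast RNA in the globin value was not tested.

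**Figure D2:**
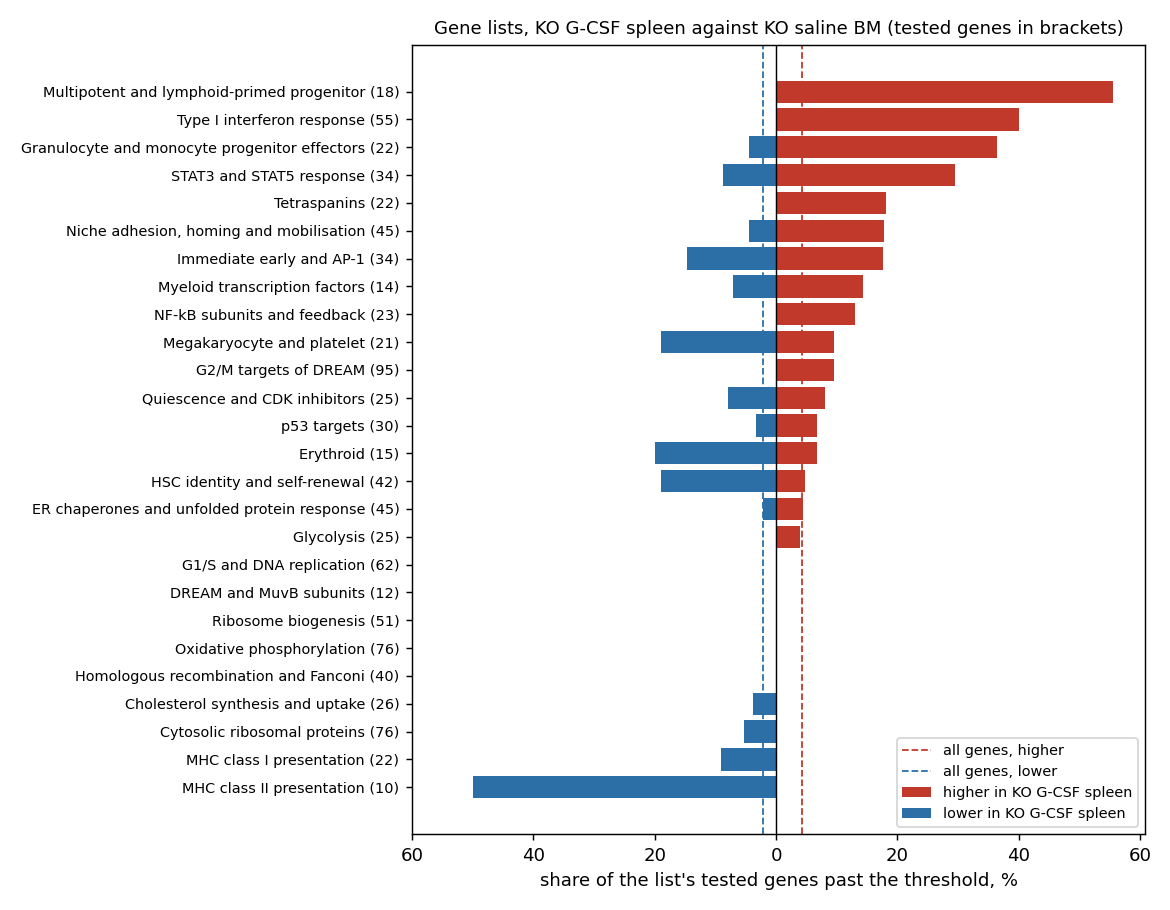
Share of the tested genes of each of 26 gene groups that passed an adjusted p of 0.05, in percent, with genes higher in KO G-CSF spleen to the right (red) and lower to the left (blue), and dashed lines at the shares among all 13586 genes, 4.19% and 2.09%. Progenitor, interferon and granulocyte groups reach farthest to the right, and MHC class II, with 5 of 10 genes, farthest to the left.

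A small share of the genes of G2 and mitosis, the class that the DREAM complex represses in resting cells, was higher in spleen. Of 95 tested genes 9 were higher and 0 lower, the median log2 fold change was 0.33 and 77 were positive, against 4.19% higher, 2.09% lower and 6678 positive among all 13586 genes. Bub1, the spindle checkpoint kinase whose promoter is printed above, lay at 5.76, 5.96, 6.14 and 6.14 log2 CPM in KO G-CSF spleen, against 5.02, 5.26 and 5.13 in KO saline BM, a rise of 0.86 ± 0.18 (adjusted p = 0.00333). Pif1, a DNA helicase, lay at 3.47, 3.57, 3.78 and 3.45 in KO G-CSF spleen, against 2.26, 2.12 and 2.57 in KO saline BM, a rise of 1.25 ± 0.24 (adjusted p = 0.00147). Kif20a, a kinesin of cytokinesis, rose by 0.86 ± 0.17 (adjusted p = 0.00259). Kif14, another kinesin of cytokinesis, rose by 0.93 ± 0.23 (adjusted p = 0.013), but not without KO saline BM replicate 1 (adjusted p = 0.118). The number of higher members fell to 3 without KO saline BM replicate 1 and to 5 without KO G-CSF spleen replicate 3, and 3 of 95 is no larger a share than that of all genes.

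More of the G2/M genes passed in marrow under G-CSF. In the marrow step, KO G-CSF BM against KO saline BM, 58 of the 95 were higher and 0 lower, against 5.57% of all genes called higher there, with a median of 0.73. That count was 36 without KO saline BM replicate 1. In the tissue step, KO G-CSF spleen against KO G-CSF BM, 0 were higher and 1 lower, against 0.95% and 0.317% of all genes, with a median of −0.41, and 3 of 95 were positive. The lower count there was 2 without KO G-CSF spleen replicate 3 and 0 without any other of the 8 libraries. The marrow step and the main comparison share the saline libraries, and the marrow and tissue steps share the KO G-CSF BM libraries. In WT mice the contrast of spleen with saline BM gave 1 higher and 17 lower, against 11.7% and 9.4% of all genes, with a median of −0.33. Genes of G1/S and DNA replication gave 0 higher and 0 lower of 62 in the KO contrast, with a median of 0.03. The 12 subunits of DREAM and MuvB gave 0 calls, with a median of −0.02.

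**Figure D3:**
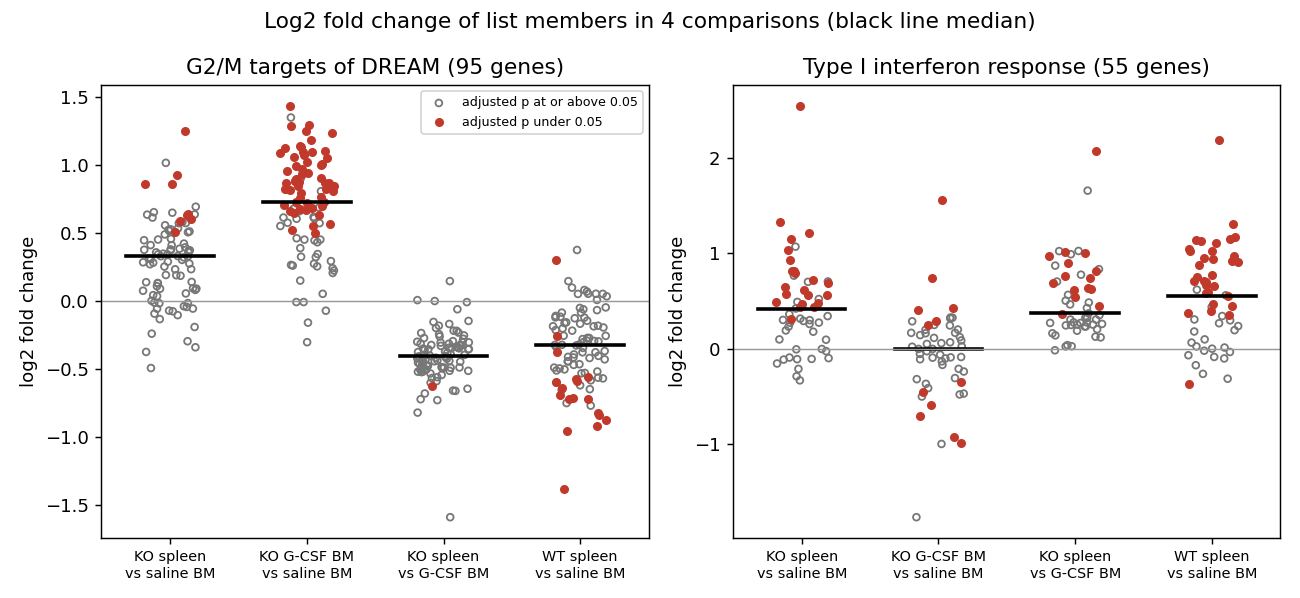
Log2 fold change of the 95 G2/M genes (left) and the 55 interferon genes (right) in 4 comparisons, with 1 point per gene, filled red where the adjusted p is under 0.05 and open where it is not, and a black line at the median. The G2/M median is 0.33 in KO spleen against saline BM, 0.73 in the marrow step, −0.41 in the tissue step and −0.33 in WT spleen against saline BM, and the interferon median is 0.42, 0.00, 0.37 and 0.55 in the same order.

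Interferon-stimulated genes, the antiviral programme, counted 22 higher and 0 lower of 55 in spleen, against 4.19% and 2.09% of all genes, with a median log2 fold change of 0.42. Oas2, a sensor of double-stranded RNA, lay at 7.03, 7.36, 7.05 and 7.70 log2 CPM in KO G-CSF spleen, against 5.63, 4.26 and 4.32 in KO saline BM, a rise of 2.55 ± 0.31 (adjusted p = 7.6e-06). Oas1a, of the same enzyme family and with its promoter printed above, lay at 6.85, 6.71, 6.80 and 6.92 in KO G-CSF spleen, against 5.92, 5.61 and 5.85 in KO saline BM, a rise of 1.03 ± 0.12 (adjusted p = 6.57e-06). Reads of Oas1a may be shared with its close paralogs. Ifitm1, a membrane protein that restricts virus entry, rose by 0.72 ± 0.09 (adjusted p = 1.39e-05), and Lgals3bp, a secreted glycoprotein, by 0.48 ± 0.08 (adjusted p = 0.000245). Isg15, Irf7, Ddx58, Dhx58, Oas3, Oasl1, Oasl2, Ifi27, Ifi44, Isg20, Rtp4 and Xaf1 were also among the 22. The number of higher members was 13 without KO saline BM replicate 2.

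The interferon group was counted in each step. In the marrow step 6 of 55 were higher and 6 lower, against 5.57% and 4.3% of all genes, with a median of 0.00. Leaving out 1 of its 7 libraries gave 2 to 6 higher and 3 to 9 lower, with 2 higher and 7 lower without KO saline BM replicate 2, 4 and 9 without KO G-CSF BM replicate 2, 3 and 4 without KO G-CSF BM replicate 1, and 4 and 3 without KO saline BM replicate 3. In the tissue step 15 were higher and 0 lower, against 0.95% and 0.317% of all genes, with a median of 0.37, and 54 of 55 were positive. The higher count was 6 without KO G-CSF spleen replicate 4, 8 without KO G-CSF BM replicate 4, 9 without KO G-CSF spleen replicate 2 and 11 to 14 without any other of the 8 libraries, and 8 with library weights. Oas1a passed in both, at 0.41 ± 0.12 (adjusted p = 0.0389) in the marrow step and 0.62 ± 0.12 (adjusted p = 0.00532) in the tissue step. Ifitm1 passed in the marrow step alone, at 0.74 ± 0.09 (adjusted p = 8.59e-06) against −0.02 ± 0.09 (adjusted p = 0.97) in the tissue step.

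Several MHC class II genes, which present peptides to T helper cells, were lower in spleen. Of 10 tested genes 5 were lower and 0 higher, against 2.09% and 4.19% of all genes, with a median log2 fold change of −0.46. H2-Aa, an alpha chain, lay at 4.49, 3.34, 5.32 and 5.45 log2 CPM in KO G-CSF spleen, against 6.59, 6.82 and 7.81 in KO saline BM, and fell by 2.42 ± 0.40 (adjusted p = 0.000358). H2-Eb1, a beta chain, lay at 2.83, 0.50, 3.31 and 3.12 in KO G-CSF spleen, against 4.30, 4.77 and 6.01 in KO saline BM, a log2 fold change of −2.59 ± 0.49 (adjusted p = 0.00132). Ciita, the transactivator on which these promoters depend, lay at 1.63, 2.51, 1.62 and 1.62 in KO G-CSF spleen, against 3.17, 3.49 and 4.14 in KO saline BM, a log2 fold change of −1.76 ± 0.35 (adjusted p = 0.00237). The library that stood apart was the lowest of the spleen libraries for both chains and the highest for Ciita. In none of the 3 genes did the groups overlap, which the choice of both chains among the largest falls required. H2-DMa, which loads peptides, had −0.47 ± 0.11 (adjusted p = 0.00825), but its adjusted p was 0.0589 without KO saline BM replicate 2 and 0.0561 without replicate 3. H2-Ab1, a beta chain named after its values were seen, had −1.44 ± 0.36 (adjusted p = 0.0161), and 0.0509 to 0.156 without KO G-CSF spleen replicate 1, KO saline BM replicate 2 or KO saline BM replicate 3. The lower count was 3 without KO saline BM replicate 2 or replicate 3. Neither step passed for H2-Aa, at −1.23 ± 0.40 (adjusted p = 0.053) and −1.19 ± 0.37 (adjusted p = 0.144), nor for H2-Eb1, at −0.91 ± 0.49 (adjusted p = 0.256) and −1.67 ± 0.45 (adjusted p = 0.0697).

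Markers of macrophages moved in the main comparison as well. Of 15 macrophage markers 13 are in the table, of which 2 were higher and 6 lower, against 4.19% and 2.09% of all genes. The median log2 fold change was −1.02, and 4 of the 13 were positive. The group's summed level was 252 to 261 CPM in KO G-CSF spleen, against 138 to 177 CPM in KO saline BM. Cd68 weighs most in the spleen sum, with a mean of 7.61 log2 CPM, while the next highest marker, Slc40a1, averaged 4.37. The sum and most of the markers ran in different directions. Adgre1, which encodes F4/80, had 20 reads summed over KO G-CSF spleen and 288 over KO saline BM. The ratio of KO saline BM over KO G-CSF spleen per effective library size was 18.6 (exact 95% interval for counting error 11.8 to 30.9), and the adjusted p was 0.00762. C1qb, a chain of complement C1q, had 44 reads over KO G-CSF spleen and 573 over KO saline BM, a ratio of KO saline BM over KO G-CSF spleen of 16.8 (12.4 to 23.4), adjusted p = 0.00264. Cd68, a lysosomal glycoprotein abundant in macrophages, took the other direction, at 7.62, 7.71, 7.59 and 7.52 log2 CPM in KO G-CSF spleen, against 5.36, 5.11 and 5.25 in KO saline BM, a rise of 2.37 ± 0.12 (adjusted p = 2.86e-12). Csf1r, the M-CSF receptor, named after its values were seen, had 2.90 ± 0.77 (adjusted p = 0.0237), with overlapping groups. Without KO saline BM replicate 3 its log2 fold change was 1.25, and without KO saline BM replicate 1 it was 4.18. Its call was lost without KO G-CSF spleen replicates 2, 3 or 4 or KO saline BM replicate 3, with adjusted p of 0.0516 to 0.181. Without KO saline BM replicate 1 the lower count of macrophage markers was 3. In the marrow and tissue steps the median of the macrophage markers was −2.55 and 0.23. The MHC class II median was −0.29 and −0.31. In the WT contrast 1 of the 13 macrophage markers was higher and 6 lower, against 11.7% and 9.4% of all genes. There 2 of the 10 MHC class II genes were higher and 0 lower. The part of macrophage RNA in the MHC class II values was not tested. Of 12 B cell markers 4 are in the table and summed to 111 to 146 CPM in KO G-CSF spleen, against 131 to 151 CPM in KO saline BM. Of 10 dendritic cell markers 5 are in the table and summed to 131 to 195 CPM in KO G-CSF spleen, against 136 to 161 CPM in KO saline BM.

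**Figure D4:**
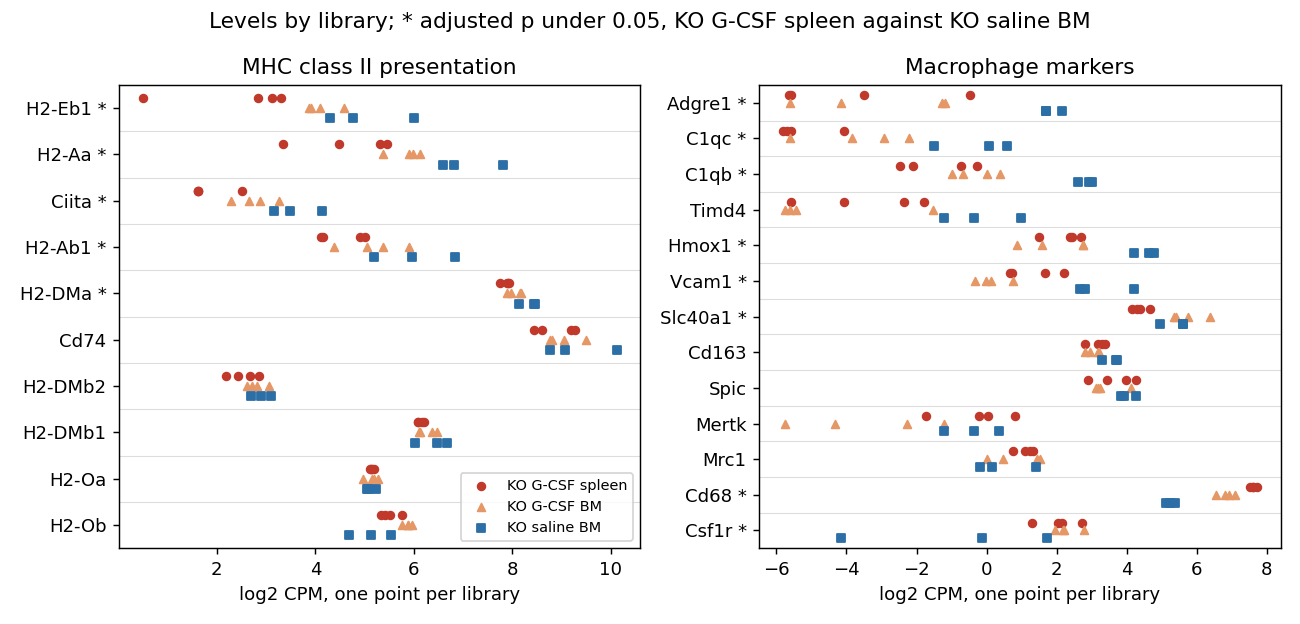
Level in log2 CPM of the 10 MHC class II genes (left) and the 13 macrophage markers (right) with 1 point per library for KO G-CSF spleen (red circles), KO G-CSF BM (orange triangles) and KO saline BM (blue squares), and an asterisk where the adjusted p of spleen against saline is under 0.05. H2-Eb1, H2-Aa and Ciita have all spleen libraries below all saline libraries, Cd68 has them above, and Adgre1 and C1qb have them below.

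MHC class I genes gave 0 higher and 2 lower of 22, against 4.19% and 2.09% of all genes. Both lower genes were of the Qa-2 family. H2-Q6 had −1.36 ± 0.17 (adjusted p = 7.16e-06) and H2-Q7 −1.06 ± 0.20 (adjusted p = 0.00145), and reads of these near-identical genes may be shared between them.

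Taking the comparison apart, 386 of the 569 higher genes also passed as higher in the marrow step and in no tissue step, 38 passed in the tissue step alone, 7 passed as higher in both and 127 in neither. A further 8 were higher in the marrow step and lower in the tissue step, and 3 the reverse. Of the 284 lower genes 173 were lower in the marrow step alone, 8 in the tissue step alone and 99 in neither, 3 were lower in the marrow step and higher in the tissue step, and 1 the reverse. Over all genes, 9.87% passed in the marrow step and 1.27% in the tissue step. The steps share libraries with the main comparison and with each other, so these counts describe where a gene passed and do not compare independent measurements.

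Some genes passed in the tissue step and not in the marrow step. Jag1, a Notch ligand (chromosome 2, 137081456 to 137116644, minus strand), lay at 5.75, 5.82, 6.06 and 6.0 log2 CPM in KO G-CSF spleen, against 3.17, 3.71 and 2.77 in KO saline BM, and rose by 2.69 ± 0.26 (adjusted p = 3.36e-07). In KO G-CSF BM it lay at 3.54, 4.16, 2.92 and 3.74, so its tissue step was 2.32 ± 0.24 (adjusted p = 6.67e-06) and its marrow step 0.37 ± 0.26 (adjusted p = 0.419). Klrb1c, the NK1.1 antigen of NK cells, rose by 1.77 ± 0.21 (adjusted p = 5.78e-06), with a tissue step of 1.57 ± 0.20 (adjusted p = 5.85e-05). It is the 1 of 5 listed T and NK cell markers that passed, and these markers summed to 114 to 121 CPM in KO G-CSF spleen, against 62.7 to 72.5 CPM in KO saline BM, and their part in its rise was not tested. Xdh, xanthine dehydrogenase, rose by 1.02 ± 0.17 (adjusted p = 0.000536), with a tissue step of 1.46 ± 0.16 (adjusted p = 1.4e-05), and Ahnak, a scaffold of the cell cortex, by 1.37 ± 0.29 (adjusted p = 0.00457), with a tissue step of 2.23 ± 0.27 (adjusted p = 4.2e-05).

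Syk, a tyrosine kinase of immune receptors and integrins, was lower in spleen, at 6.65, 6.52, 6.78 and 6.84 log2 CPM in KO G-CSF spleen, against 7.49, 7.26 and 7.07 in KO saline BM, a log2 fold change of −0.57 ± 0.11 (adjusted p = 0.0012). Its tissue step was −0.85 ± 0.10 (adjusted p = 2.31e-05). Mdga1, a membrane-anchored adhesion protein, fell by 1.09 ± 0.17 (adjusted p = 0.000239), with a tissue step of −0.93 ± 0.16 (adjusted p = 0.0023).

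Among the 7 genes that rose in both steps, Cd68 gained 1.59 ± 0.12 in the marrow step (adjusted p = 3.76e-09) and 0.78 ± 0.11 in the tissue step (adjusted p = 0.000303). S100a4, a calcium-binding protein of motile cells, rose by 1.87 ± 0.17 in the main comparison (adjusted p = 1.43e-07) and Clca3a1, a chloride channel accessory protein, by 1.73 ± 0.18 (adjusted p = 9.02e-07). Anxa2, an annexin that binds membranes, rose by 1.33 ± 0.13 (adjusted p = 4.89e-07) and Lgals1, galectin-1, by 1.30 ± 0.13 (adjusted p = 3.62e-07). All 5 had every spleen library above every saline library.

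Lmna, the nuclear lamin A and C, turned between the steps. It lay at 4.82, 4.69, 5.34 and 5.08 log2 CPM in KO G-CSF spleen, at 2.27, 2.35, 2.77 and 2.03 in KO G-CSF BM and at 3.04, 3.58 and 3.58 in KO saline BM. The main difference was 1.58 ± 0.24 (adjusted p = 0.000151), with −1.04 ± 0.24 (adjusted p = 0.00643) in the marrow step and 2.63 ± 0.22 (adjusted p = 5.31e-07) in the tissue step. Vldlr, the very low density lipoprotein receptor, had the reverse order. It lay at 6.47, 6.74, 6.63 and 6.71 in KO G-CSF spleen, at 7.82, 8.08, 7.91 and 8.08 in KO G-CSF BM and at 4.41, 4.20 and 3.73 in KO saline BM. Its main difference was 2.52 ± 0.13 (adjusted p = 2.86e-12) and its tissue step −1.34 ± 0.12 (adjusted p = 5.68e-07). Clnk, an adaptor of immune receptor signalling, rose by 1.38 ± 0.23 (adjusted p = 0.000395) with a tissue step of −1.26 ± 0.21 (adjusted p = 0.00204), and Wfdc17 had a tissue step of −1.12 ± 0.23 (adjusted p = 0.011).

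**Figure D5:**
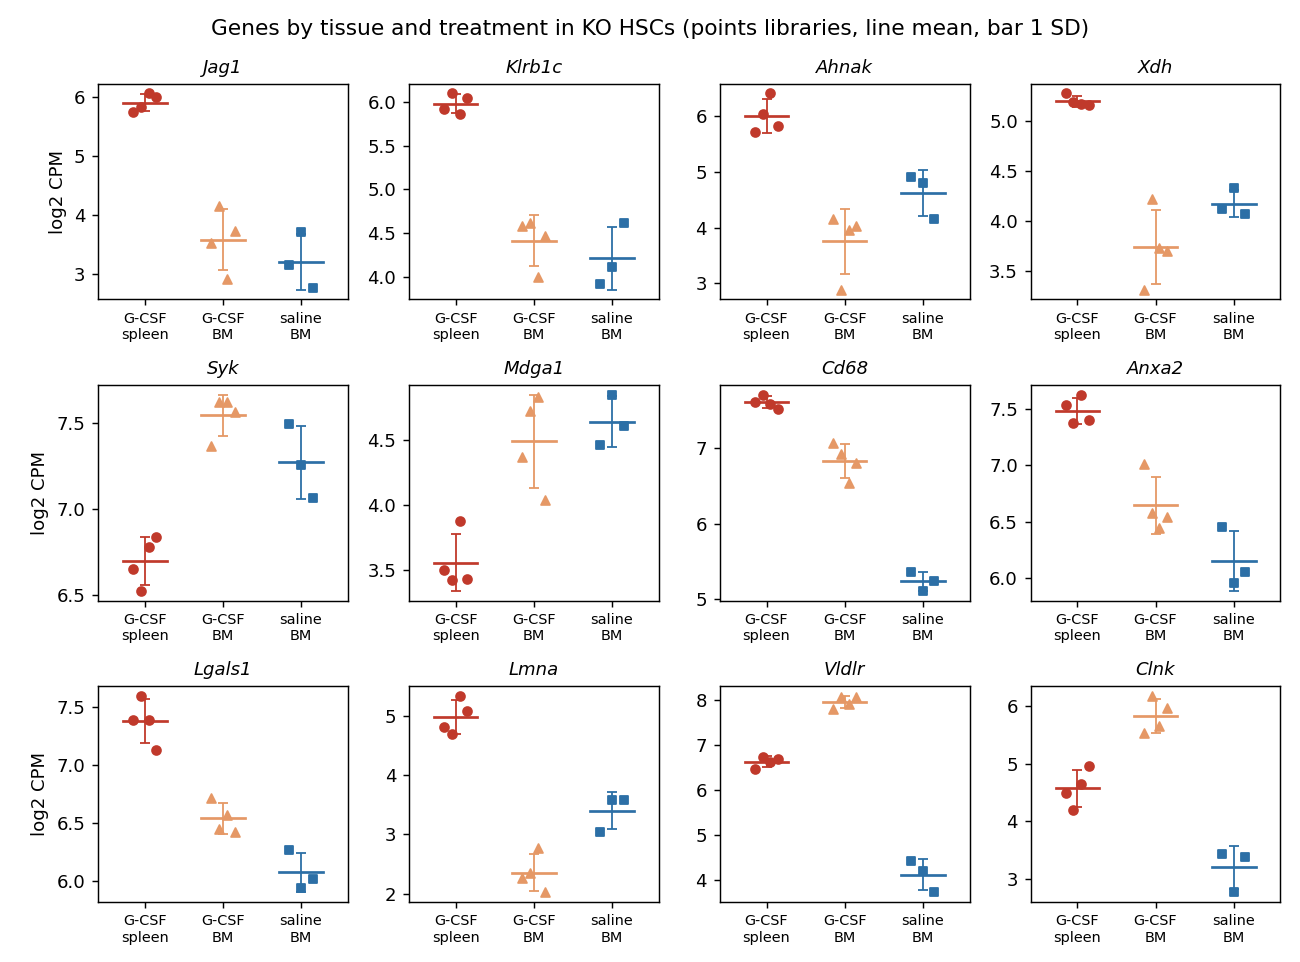
Level of 12 genes in log2 CPM in KO G-CSF spleen (red circles), KO G-CSF BM (orange triangles) and KO saline BM (blue squares), with 1 point per library, a line at the group mean and a bar of 1 SD (n = 4, 4 and 3). Jag1, Klrb1c, Ahnak and Xdh are higher and Syk and Mdga1 lower in spleen than in both marrow groups, Cd68, Anxa2 and Lgals1 rise in both steps, and Lmna, Vldlr and Clnk turn between them.

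Adhesion, homing and mobilisation genes gave 8 higher and 2 lower of 45, against 4.19% and 2.09% of all genes, with a median log2 fold change of 0.17. The lower count was 1 without KO saline BM replicate 1, and the higher count was 6 to 9 on leaving out any of the 7 libraries. Plaur, the urokinase receptor, rose by 1.0 ± 0.17 (adjusted p = 0.000489), and Itgam and Vcam1, given above, are members too. Of 22 tetraspanins 4 were higher and 0 lower, beginning with Cd53. Tspan2 lay at 4.31, 5.04, 5.06 and 4.68 log2 CPM in KO G-CSF spleen, against 3.92, 3.39 and 3.32 in KO saline BM, a rise of 1.23 ± 0.22 (adjusted p = 0.000827). Tspan7 lay at 3.66, 4.19, 3.79 and 3.33 in KO G-CSF spleen, against 3.04, 0.41 and 2.35 in KO saline BM, a rise of 1.81 ± 0.38 (adjusted p = 0.00401), with 0.0542 in a fit on the compared groups alone.

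Most housekeeping and metabolic groups had few or no calls. Ribosome biogenesis (51 genes), oxidative phosphorylation (76) and homologous recombination (40) had 0 calls each, with medians of 0.01, −0.06 and 0.04. Glycolysis had 1 higher of 25 and cholesterol synthesis 1 lower of 26. ER chaperones and the unfolded protein response had 2 higher and 1 lower of 45, and p53 targets 2 higher and 1 lower of 30, against 4.19% and 2.09% of all genes. On leaving out 1 of the 7 libraries the ER counts were 1 to 2 higher and 0 to 1 lower, and the p53 targets had 0 higher without KO saline BM replicate 3 and 1 to 2 without any other. Cytosolic ribosomal protein genes had 0 higher and 4 lower of 76 with a median of −0.23. Of the 76 genes 9 were positive, against 6678 of all 13586 genes. With library weights 10 were lower. That count of 4 was 12 without KO G-CSF spleen replicate 2, 8 without KO saline BM replicate 2, 1 without KO G-CSF spleen replicate 3 or KO saline BM replicate 1, and 0 without KO G-CSF spleen replicate 4 or KO saline BM replicate 3.

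The same contrast in WT mice compares other libraries, although all groups share 1 estimate of the spread, and passed for 2862 genes (21.1%), 1585 higher and 1277 lower. Of the 569 genes higher in KO spleen 445 were also higher in WT spleen, which is 78.2% of the KO calls and 28.1% of the WT calls. Of the 284 lower genes 183 were also lower in WT, 64.4% of the KO calls and 14.3% of the WT calls, and 0 genes were called in opposite directions. The test of the difference between genotypes, the interaction, passed for 0 genes (0%) in limma, while 1415 had an unadjusted p under 0.05. With libraries weighted by how closely they followed their group means it passed for 52 genes, 28 positive and 24 negative. Genes called in KO and not in WT are therefore not shown to differ between the genotypes.

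The interactions of smallest p, none of which passed, included Kif14 and Kif11, kinesins of mitosis. Kif14 had an interaction of 1.46 ± 0.31 (adjusted p = 0.301), from 0.93 in KO and −0.53 in WT, and Kif11 one of 1.04 ± 0.23 (adjusted p = 0.301), from 0.31 in KO and −0.72 in WT. Syne3, a nuclear envelope protein, had 1.44 ± 0.33 (adjusted p = 0.301), and Pes1, a ribosome biogenesis factor, −1.27 ± 0.23 (adjusted p = 0.154), from −0.26 in KO and 1.01 in WT. Of the 95 G2/M genes 90 had a positive interaction, with a median of 0.66, and of the 10 MHC class II genes 0 had one, with a median of −0.95. Among all 13586 genes 6980 had a positive one, with a median of 0.01. Other groups leaned too, with 52 of 62 G1/S genes and 36 of 40 homologous recombination genes positive. Cytosolic ribosomal protein genes had 9 of 76 positive, and oxidative phosphorylation genes 9 of 76. No member of the G2/M or MHC class II group passed in the model without library weights. With library weights, 10 of the 95 G2/M genes passed as positive and 1 of the 10 MHC class II genes as negative. In the WT contrast 11.7% of all genes passed as higher and 9.4% as lower. There 2 of the 10 MHC class II genes were higher and 0 lower, and 31 of the 55 interferon genes were higher and 1 lower.

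The authors' deposited table for the same comparison lists 683 higher and 508 lower genes at an adjusted p under 0.05. Of its 1191 genes 805 are among the 853 calls given here, which is 94.4% of these calls and 67.6% of those in the authors' deposited table, with 0 opposite signs. For Cd53 the authors' deposited table gives a log2 fold change of 3.08, and for Kit −0.58 with an adjusted p of 0.0443.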

How the data were processed

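RNA of sorted HSCs was extracted with a NucleoSpin RNA XS kit and amplified with SMARTer Ultra Low RNA, per the labels' protocols. The submitters' processing notes give build mm10 and, with no role stated, Salmon 0.8.2, featureCounts 1.4.6-p5 (Subread), limma, edgeR, STAR 2.5.1a and bcl2fastq. The authors deposited log2 values per library, which step as log2 of whole reads plus 0.5 on the CPM scale of an effective library size, and all values gave whole reads within 0.05. The authors also deposited log2 fold changes with bounds, p-values and adjusted p-values, which were set beside the results only. The table holds 13645 lines; 51 repeated lines were dropped, leaving 13594 genes, and 19 symbols turned into dates were restored. No sample column was left unmapped.

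Genes above 1 CPM in at least 3 libraries were tested with limma 3.58.1 (R 4.3.3, statmod 1.5.0): all 22 libraries, 6 group means, 16 residual degrees of freedom, a variance prior that follows expression, and Benjamini-Hochberg adjustment over 13586 genes with a threshold of 0.05. Errors are standard errors (SE) of this model. Depth was 22578088 to 31268856 reads per library. Genes named are Cd53 and the gate genes, the 12 largest called rises and falls without overlap whose higher group averaged 3 log2 CPM or more, up to 4 genes of smallest p per list, up to 5 genes per pattern of steps, and the smallest p of the interaction; some were left out for length, and further members of lists that passed are named without values. Some members are not reported here. The members and gene lists were chosen with earlier results of these data known. On simulated reads for KO G-CSF spleen against KO saline BM (13586 genes), 70% of 100 genes changed 2-fold and 31% of 100 changed 1.5-fold were recovered. Only these 200 genes were changed, and none was drawn from the lowest expressed genes, so the rates may differ in the data. Same-numbered KO spleen and saline libraries deviated from their group means with correlations of −0.07 to 0.10. The numbers were not taken as pairs, and the correlations of other groups are given at the end. Alternatives left out libraries and changed the samples fitted, variance model, weights, filter, scaling and replicate block. Python 3.11.15, pandas 2.3.3, NumPy 2.4.6, SciPy 1.17.1 and matplotlib 3.10.9 were used.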

Additional observations from a re-analysis of the deposited data

Results flagged for a closer look

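Among the 82 genes named, 7 had 1 of the 4 KO G-CSF spleen libraries far from the other 3, by a rule that flags about 1 in 20 groups by chance. In KO G-CSF spleen replicate 2, Pirb lay at 4.15 log2 CPM, the others at 4.54 to 4.58, and H2-Eb1 at 0.50, the others at 2.83 to 3.31. In the same library Igsf6 lay at 4.14, the others at 3.51 to 3.58, and Ciita at 2.51, the others at 1.62 to 1.63. KO G-CSF spleen replicate 1 held Cd48 at 3.73, the others at 4.21 to 4.27, and H2-DMa at 7.75, the others at 7.89 to 7.92. In KO G-CSF spleen replicate 3, Mdga1 lay at 3.88, the others at 3.42 to 3.50.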

How the results depend on the processing

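The count of genes that passed between KO G-CSF spleen and KO saline BM, 853, ran from 567 to 885 on leaving out each of the 7 libraries, and stayed within 1.5 times under the 10 other settings. The marrow step, 1341, gave 613 with the compared groups alone and 865 to 1910 on leaving out libraries. The tissue step, 172, gave 78 with the compared groups alone, 110 without a variance trend and 97 to 198 on leaving out libraries. WT spleen against saline BM, 2862, gave 4683 with library weights and 2034 to 2967 on leaving out libraries. The interaction, 0, gave 52 with library weights and 0 to 2 on leaving out libraries. The log2 fold change of Cd53 stayed at 2.70 to 3.49. With a replicate block of the number within genotype the counts were 789 for the main comparison and 200 for the tissue step. With another replicate block, the code of genotype, treatment and number that spleen and G-CSF BM libraries share, as a random effect, they were 855 and 195. Same-numbered spleen and G-CSF BM libraries of KO mice correlated at −0.01 to 0.15. KO G-CSF BM and KO saline BM gave 0.05 to 0.14. WT G-CSF spleen gave 0.04 to 0.09 with WT G-CSF BM and 0.050 to 0.085 with WT saline BM. The labels do not say what the numbers share, and they were not taken as pairs in the main fit. Of 77 named genes that passed, 69 passed on leaving out each of the 7 libraries and 73 under the 10 other settings; those lost there were Treml1 without a variance trend (adjusted p = 0.052), and Kif14, Tspan7 and Csf1r with the compared groups alone (0.0588, 0.0542 and 0.139). No called gene changed direction. Centred on library medians, the split was 629 higher and 233 lower, and scaled to the total of listed genes 500 and 328. Genes near the floor of 3 reads limit precision.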
